A study of Homo sapiens with 34 samples.

Results

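The muscle actins and contractile genes described here are 10 genes of the 37951 listed in the count tables: ACTA1, ACTA2, ACTC1, TAGLN, CNN1, TPM1, MYL4, MYL7, MYL9 and DES. They were found by gene symbol, 10 of 10 with a single gene identifier, and they were picked with their levels over the 17 conditions known, so their levels and differences are given as a description, with no test of their own. RNA sequencing was performed on ESI017, a single wild-type human embryonic stem cell line, with 2 libraries, labelled as biological replicates, for each condition. Replicates 1 and 2 came from separate tables, and nothing in the labels says which cultures, days or handling they shared. Cells were first driven for 24 h toward one of 4 coordinates of the primitive streak in E6 basal medium: DE(a) with 100 ng/ml activin A and 2 µM CHIR99021, a WNT pathway activator; APS (anterior) with activin A at 30 ng/ml, CHIR99021 at 4 µM and bFGF at 20 ng/ml; MPS (mid) with activin A and bFGF as for APS plus BMP4 at 40 ng/ml and CHIR99021 at 6 µM; and PPS (posterior) with the MPS factors but no activin A. Each of these 4 populations was sequenced at 24 h and after a second day, to 48 h, in each of 3 media. DE(b), the endoderm medium, held 100 ng/ml activin A and 250 nM of the BMP receptor inhibitor LDN-193189. PM, the paraxial mesoderm medium, held the same LDN-193189 dose, bFGF at 20 ng/ml and 1 µM A-8301, an inhibitor of the activin receptor. The labels and methods list no WNT activator in PM, but the study elsewhere speaks of one in this step, so whether these PM libraries received it is uncertain. LM, the lateral mesoderm medium, held 30 ng/ml BMP4, 1 µM A-8301 and 4 µM of the WNT secretion inhibitor IWP2. The control stayed in mTeSR PLUS maintenance medium and is labelled 48 h, so the 24 h populations were set against a control of another hour. PPS-DE(b), for example, denotes PPS cells moved to DE(b). All conditions share 1 cell line, and no second line tests how general a level is.

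Muscle cells shorten when myosin filaments pull on actin filaments, and the actin in a mature muscle is a muscle-specific isoform: ACTA1 in skeletal muscle, ACTC1 in heart and ACTA2 in smooth muscle. Tropomyosin (TPM1), transgelin (TAGLN) and calponin (CNN1) bind the actin filament, the myosin light chains MYL4, MYL7 and MYL9 sit on the neck of the myosin head, and desmin (DES) is the intermediate filament that ties muscle fibrils together. Several of these genes are also switched on before any muscle exists, in early mesoderm and in cells under mechanical tension. Many are targets of serum response factor (SRF), which binds a short DNA element called the CArG box together with the coactivators MRTFA, MRTFB or, in cardiac and smooth muscle, myocardin (MYOCD).

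CArG boxes were looked for, on both strands, in the 250 bases before the annotated RefSeq starts, and the stretches that held one are shown so that the element can be seen. RefSeq promoter windows (GRCh38.p14) were at hand for 6 of the 10 genes, 9 windows in all. A CArG box was held by 3 of the 6 genes, each in 1 window. Over all genes, 407 of 35116 windows, or 1.16%, held one, which is a share of windows and not of genes. The 90 bases around each box are given 5′ to 3′ on the gene's own (minus) strand with the box in capitals. The ACTA1 stretch is chr1:229434142-229434231, with the box 97 to 88 bases before the start. The MYL7 stretch is chr7:44141344-44141433, with the box 61 to 52 bases before the start. The ACTC1 stretch is chr15:34795609-34795698, with the box 109 to 100 bases before the start of the first of 3 annotated windows.
ACTA1: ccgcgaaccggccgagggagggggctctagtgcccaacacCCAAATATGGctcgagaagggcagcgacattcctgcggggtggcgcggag
MYL7: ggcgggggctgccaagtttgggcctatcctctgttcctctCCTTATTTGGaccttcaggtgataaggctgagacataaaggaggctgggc
ACTC1: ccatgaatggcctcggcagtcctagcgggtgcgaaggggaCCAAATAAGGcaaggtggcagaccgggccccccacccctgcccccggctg
A second motif, CATTCC on either strand, the core of the element bound by TEAD factors, occurred 2 times in the ACTA1 window and 1 time each in the MYL7 window, 1 of 3 ACTC1 windows and 1 of 2 ACTA2 windows, against 4175 of 35116 windows, or 11.9%, that held it at all. No CArG box was found in the windows of ACTA2, TPM1 or CNN1, which says only that these letters are not in those 250 bases. No entry was at hand for TAGLN, MYL4, MYL9 or DES. All 10 genes, searched or not, were higher after a PPS than a DE(a) start in DE(b), as given below, so the boxes cannot be set against that difference.

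Levels are given in CPM, the estimated count of a gene scaled to a library total of 1000000. The unscaled totals ran from 15522780 to 23439799 with a median of 19341117. A count of 3, taken as the floor, is therefore about 0.15 CPM. Differences are log2 fold changes from edgeR, with their standard error (SE), fitted on all 34 libraries and 17895 genes; genes whose Benjamini-Hochberg adjusted p over all genes tested was under 0.05 are termed called. Calls of the 10 genes are counted beside the share of all genes called in the same comparison, and nothing is read from them, since the genes were chosen on these libraries. Of the 34 libraries, 24 were most like their own replicate (r from 0.969 to 0.988 between replicates), and the median log2 fold change of all genes stayed between -0.02 and 0.03 in every comparison between conditions. In bulk RNA, more cells of one kind and more RNA per cell cannot be told apart.

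ACTC1 (chr15:34790107-34795589), the cardiac alpha-actin, reached the highest level of the 10 genes and did so in LM. In the control it stood at 31.9 and 36.4 CPM in replicates 1 and 2. At 24 h it stood at 107 and 85.7 CPM in DE(a), 120.3 and 90.6 in APS, 381 and 249 in MPS and 291 and 162 in PPS, all above the control. In DE(b) it was 10.8 and 7.85 CPM from a DE(a) start, 7.40 and 7.86 from APS, 60.3 and 35.4 from MPS and 470 and 270 from PPS. Thus a DE(a) or APS start left ACTC1 in DE(b) below the undifferentiated cells, while a PPS start left it above every 24 h library except those of MPS and PPS, with which it overlapped. In PM it was 12.8 and 10.8 CPM from DE(a), 19.3 and 10.2 from APS, 24.7 and 17.2 from MPS and 178 and 107 from PPS. In LM it was 225 and 587 CPM from DE(a), 834 and 1770 from APS, 3331 and 3676 from MPS and 3080 and 2281 from PPS. The 8 LM libraries did not overlap the 8 PM libraries, and the LM minus PM difference was 5.87 ± 0.27 (log2, SE). Against DE(b) it was 5.49 ± 0.27, and here the libraries of PPS-DE(b) reached into the LM range. The mean in MPS-LM, 3504 CPM, was 103 times the control and 459 times the lowest condition, APS-DE(b).

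ACTA1 (chr1:229430365-229434104), the skeletal alpha-actin, had a different order of conditions, with PPS-DE(b) at its top and not LM. The control held 3.92 and 6.01 CPM, and the 24 h populations held 8.57 and 6.25 in DE(a), 6.14 and 5.40 in APS, 16.1 and 9.41 in MPS and 16.4 and 9.32 in PPS. In DE(b) ACTA1 was 2.54 and 2.38 CPM from DE(a), 0.937 and 1.04 from APS, 5.61 and 3.48 from MPS and 114 and 67.0 from PPS. The 2 PPS-DE(b) libraries lay above the other 32 libraries, and their mean of 90.7 CPM was 20.0 times the highest mean of the other 3 starts. In PM it was 0.564 and 0.954 CPM from DE(a), 0.239 and 0.341 from APS, 1.78 and 0.836 from MPS and 33.0 and 19.0 from PPS, again with PPS above all 6 others, by 19.9 times over the next mean. In LM it was 1.97 and 0.477 CPM from DE(a), 0.361 and 0.322 from APS, 2.25 and 1.61 from MPS and 6.75 and 8.83 from PPS. PPS was above the other 6 LM libraries too, by 4.03 times. From 24 h to 48 h ACTA1 was lower in every medium after DE(a), APS and MPS starts, between 2.80 and 19.9 times lower, whereas after a PPS start its level in DE(b) was 7.04 times and that in PM 2.02 times the 24 h level, and LM stood 1.65 times below it.

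ACTA2 (chr10:88935074-88991339), the smooth muscle alpha-actin, was highest in PM. The control held 2.26 and 1.44 CPM, and the 24 h values were 1.71 and 1.07 in DE(a), 1.94 and 2.37 in APS, 2.69 and 1.28 in MPS and 3.65 and 2.59 in PPS. In PM it was 5.14 and 5.79 CPM from DE(a), 10.1 and 11.0 from APS, 12.95 and 17.7 from MPS and 52.9 and 71.7 from PPS. No libraries of adjacent starts overlapped in PM, and all 8 PM libraries were above the 8 libraries of 24 h and the control. In DE(b) it was 1.03 and 0.698 CPM from DE(a), 0.890 and 0.740 from APS, 3.38 and 2.13 from MPS and 11.4 and 5.97 from PPS, and DE(b) minus PM was -2.86 ± 0.21. In LM it was 2.36 and 3.05 CPM from DE(a), 4.65 and 3.82 from APS, 7.14 and 3.66 from MPS and 2.52 and 1.86 from PPS. PPS-LM overlapped DE(a)-LM, and both lay below APS-LM and MPS-LM. FAS, an opposite-strand gene of up to 21.1 CPM here, shares 387 exonic bases with ACTA2. The kit marks strand, but the strand setting of the counting is not given in the sources used here, so how much of the ACTA2 level FAS reads could carry was not tested.

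Set per kilobase of transcript, so that genes can be compared with each other, ACTC1 went from a trace to a main actin mRNA. Of the summed level of 6 actin mRNAs (ACTA1, ACTA2, ACTC1, ACTG2 and the ubiquitous ACTB and ACTG1), ACTC1 made up 0.529% and 0.687% in the control, and its share at 24 h ran from 1.08% to 4.48%. In LM its share was 4.64% and 10% from a DE(a) start, 19.8% and 26.1% from APS, 42.8% and 39.2% from MPS and 46.5% and 39.9% from PPS. In MPS-LM and PPS-LM it exceeded ACTG1 in 4 of 4 libraries and ACTB in 3 of 4. In DE(b) the ACTC1 share ran from 0.138% to 6.01%, in PM from 0.184% to 3.07%, with PPS at the top in both. ACTA1 and ACTA2 together never passed 2% of actin mRNA: the largest ACTA1 share was 1.35% in PPS-DE(b), the largest ACTA2 share 1.14% in PPS-PM. The 6 transcripts share no stretch of 75 bases, the read length, and between 0.91% and 7.18% of their 31-base stretches, so reads of one actin counted to another can add only where such stretches are met.

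**Figure D1:**
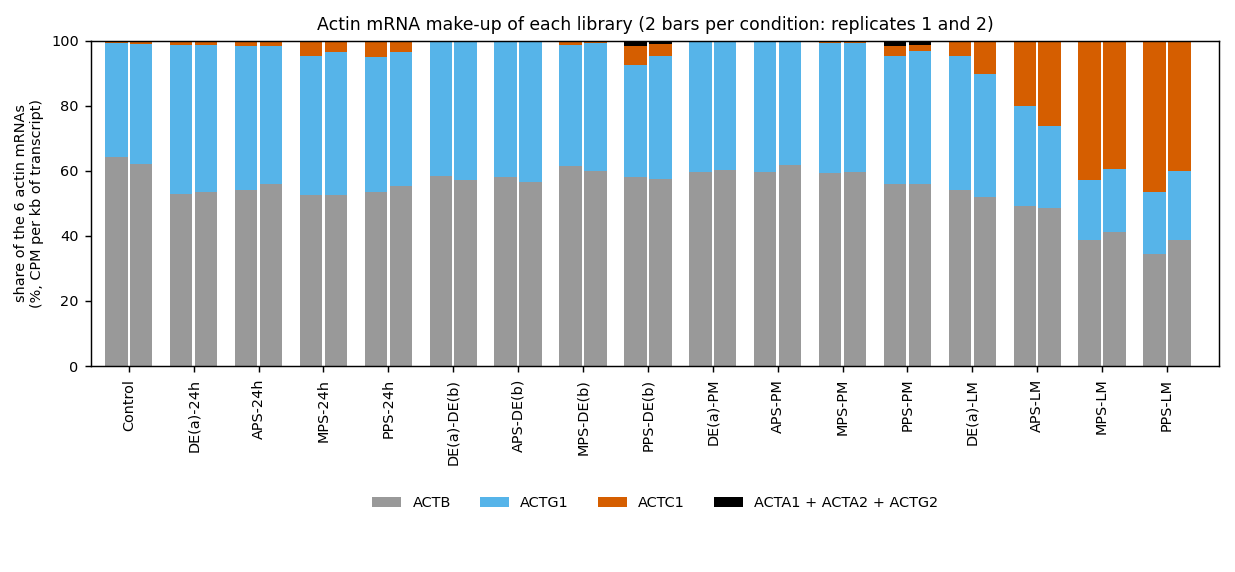
Share of each actin mRNA in the summed level of 6 actins (percent of CPM per kilobase of transcript), as 2 stacked bars for each of the 17 conditions, 1 bar for each replicate. The ACTC1 segment is under 1% in both control bars and between 39.2% and 46.5% in the 4 bars of MPS-LM and PPS-LM, while ACTA1, ACTA2 and ACTG2 together are a thin band in PPS-DE(b) and PPS-PM.

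TAGLN (chr11:117199370-117207464), an actin-bundling protein used as an early marker of smooth muscle, peaked on day 1. The control held 94.3 and 84.0 CPM. At 24 h TAGLN was 815 and 455 CPM in DE(a), 796 and 476 in APS, 751 and 528 in MPS and 294 and 197 in PPS. The DE(a), APS and MPS libraries overlapped each other and lay above both PPS libraries, which lay above the control. In DE(b) it was 286 and 163 CPM from DE(a), 220 and 159 from APS, 208 and 136 from MPS and 567 and 487 from PPS. In LM it was 238 and 178 CPM from DE(a), 133 and 132 from APS, 112 and 97.1 from MPS and 95.1 and 84.6 from PPS. The means of DE(a), APS and MPS kept the same order in both media, but PPS was the highest start in DE(b), 2.35 times the next mean, and the lowest in LM, with both libraries below the other 6. In PM TAGLN ran from 99.9 to 295 CPM with PPS overlapping the rest. PCSK7, an opposite-strand gene of up to 205 CPM here, shares 2233 exonic bases with TAGLN, and its part in these levels was not tested.

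CNN1 (chr19:11538767-11550323), calponin, was at 15.8 and 13.7 CPM in undifferentiated cells, and the 8 libraries of 24 h ran from 30.2 to 77.9 CPM. It was at its lowest after DE(a)-DE(b), at 8.13 and 5.99 CPM, and PPS-DE(b), at 62.0 and 47.1 CPM, stood 7.73 times higher. In PM the 6 libraries of the other starts ran from 9.25 to 15.2 CPM and PPS-PM held 31.2 and 18.6. In LM all starts were near each other, from 28.2 to 43.0 CPM, with both PPS libraries at the bottom.

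TPM1 (chr15:63042620-63071915), a tropomyosin made by muscle and non-muscle cells alike, started high and varied least after MYL9. The control held 348 and 402 CPM and the 24 h libraries ran from 299 to 405 CPM, around the control. In PM the DE(a), APS and MPS starts gave 123 to 171 CPM, below the control, while PPS-PM held 410 and 334. In LM TPM1 was 416 and 417 CPM from DE(a), 619 and 472 from APS, 436 and 318 from MPS and 524 and 656 from PPS, and LM minus PM was 1.48 ± 0.09. Its highest mean, 590 CPM in PPS-LM, was 4.75 times its lowest, in APS-PM. TPM1 makes many isoforms, which summed gene levels do not separate.

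MYL4 (chr17:47200446-47223679), the atrial and embryonic essential light chain, had no count in either control library, so its folds over the control are lower bounds against 3 counts per library. At 24 h it was 0.259 and 0.268 CPM in DE(a), 0.804 and 0.870 in APS, 5.96 and 1.34 in MPS and 0.938 and 0.421 in PPS. In LM it was 19.7 and 35.5 CPM from DE(a), 64.3 and 66.7 from APS, 46.9 and 28.5 from MPS and 5.73 and 4.93 from PPS. The APS-LM mean was at least 444-fold higher than the control and the PPS-LM mean at least 36.2-fold higher, and the 2 PPS-LM libraries lay below the other 6. In DE(b) it was 0.840 and 0.523 CPM from DE(a), 1.38 and 1.18 from APS, 8.26 and 3.41 from MPS and 16.2 and 7.44 from PPS. PPS had the highest mean there and the lowest in LM, although in DE(b) it overlapped MPS. In PM MYL4 stayed between 0.224 and 1.19 CPM, and LM minus PM was 5.12 ± 0.31 with no overlap between the 8 LM and 8 PM libraries. The MPS-24h libraries differed 4.45 times, and the MPS-LM minus MPS-24h difference of 3.33 ± 0.53 became 4.84 without MPS-24h replicate 1 and 2.65 without MPS-24h replicate 2.

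MYL7 (chr7:44138864-44141332), the atrial regulatory light chain, was 0.813 and 0.319 CPM in the control and higher in each of the 32 treated libraries. At 24 h it was 18.5 and 8.94 CPM in DE(a), 30.3 and 14.0 in APS, 39.0 and 15.5 in MPS and 13.4 and 3.43 in PPS. Replicate 1 was 2.07 to 3.89 times replicate 2 in these conditions. Within each replicate the order from high to low was MPS, APS, DE(a) and PPS. Both PPS libraries lay below those of APS and MPS, and all other pairs of these conditions overlapped. In DE(b) it was 12.4 and 7.70 CPM from DE(a), 18.5 and 8.70 from APS, 28.3 and 15.5 from MPS and 60.1 and 42.6 from PPS. In LM it was 30.6 and 24.7 CPM from DE(a), 37.1 and 31.4 from APS, 19.2 and 14.9 from MPS and 11.7 and 7.14 from PPS. As for TAGLN and MYL4, PPS was highest in DE(b) and lowest in LM, with no overlap in either for MYL7. PM values ran from 4.404 to 20.9 CPM. The mean in PPS-DE(b) was 90.8 times the control.

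MYL9 (chr20:36541497-36551447), the regulatory light chain of smooth muscle and non-muscle myosin, moved within the narrowest range, 3.25 times between its highest and lowest conditions. The control held 114 and 112 CPM. The 24 h libraries ran from 117 CPM in DE(a) to 254 CPM in MPS. PPS-DE(b) held 359 and 307 CPM against 86.1 to 158 from the other starts, PPS-PM held 270 and 259 against 122 to 146, and PPS-LM held 211 and 190 against 115 to 185. PPS was therefore the highest start for MYL9 in all 3 media without overlap, although in LM by only 1.09 times over the next mean.

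DES (chr2:219418377-219426735), desmin, was the lowest of the 10 genes at its peak. The control held 2.26 and 1.76 CPM, and the 24 h libraries ran from 0.540 to 2.70 CPM. In PM it was 3.07 and 4.71 CPM from DE(a), 11.7 and 5.59 from APS, 5.70 and 2.62 from MPS and 7.36 and 5.93 from PPS, with all 8 libraries above the control. In DE(b) it was 0.247 and 0.407 CPM from DE(a), 0.496 and 0.444 from APS, 0.544 and 0.841 from MPS and 2.75 and 1.33 from PPS. DE(b) minus PM was -2.95 ± 0.32, and LM, from 0.427 to 3.32 CPM, overlapped both. DES and ACTA2 thus shared PM as their highest medium, although PPS did not stand apart for DES there. Over neighbouring conditions in the order of levels, few steps separated the libraries: 7 of 16 for ACTA1, 5 of 16 for ACTA2, ACTC1 and MYL4, 4 of 16 for TAGLN and TPM1, 3 of 16 for CNN1, MYL7 and DES, and 2 of 16 for MYL9.

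**Figure D2:**
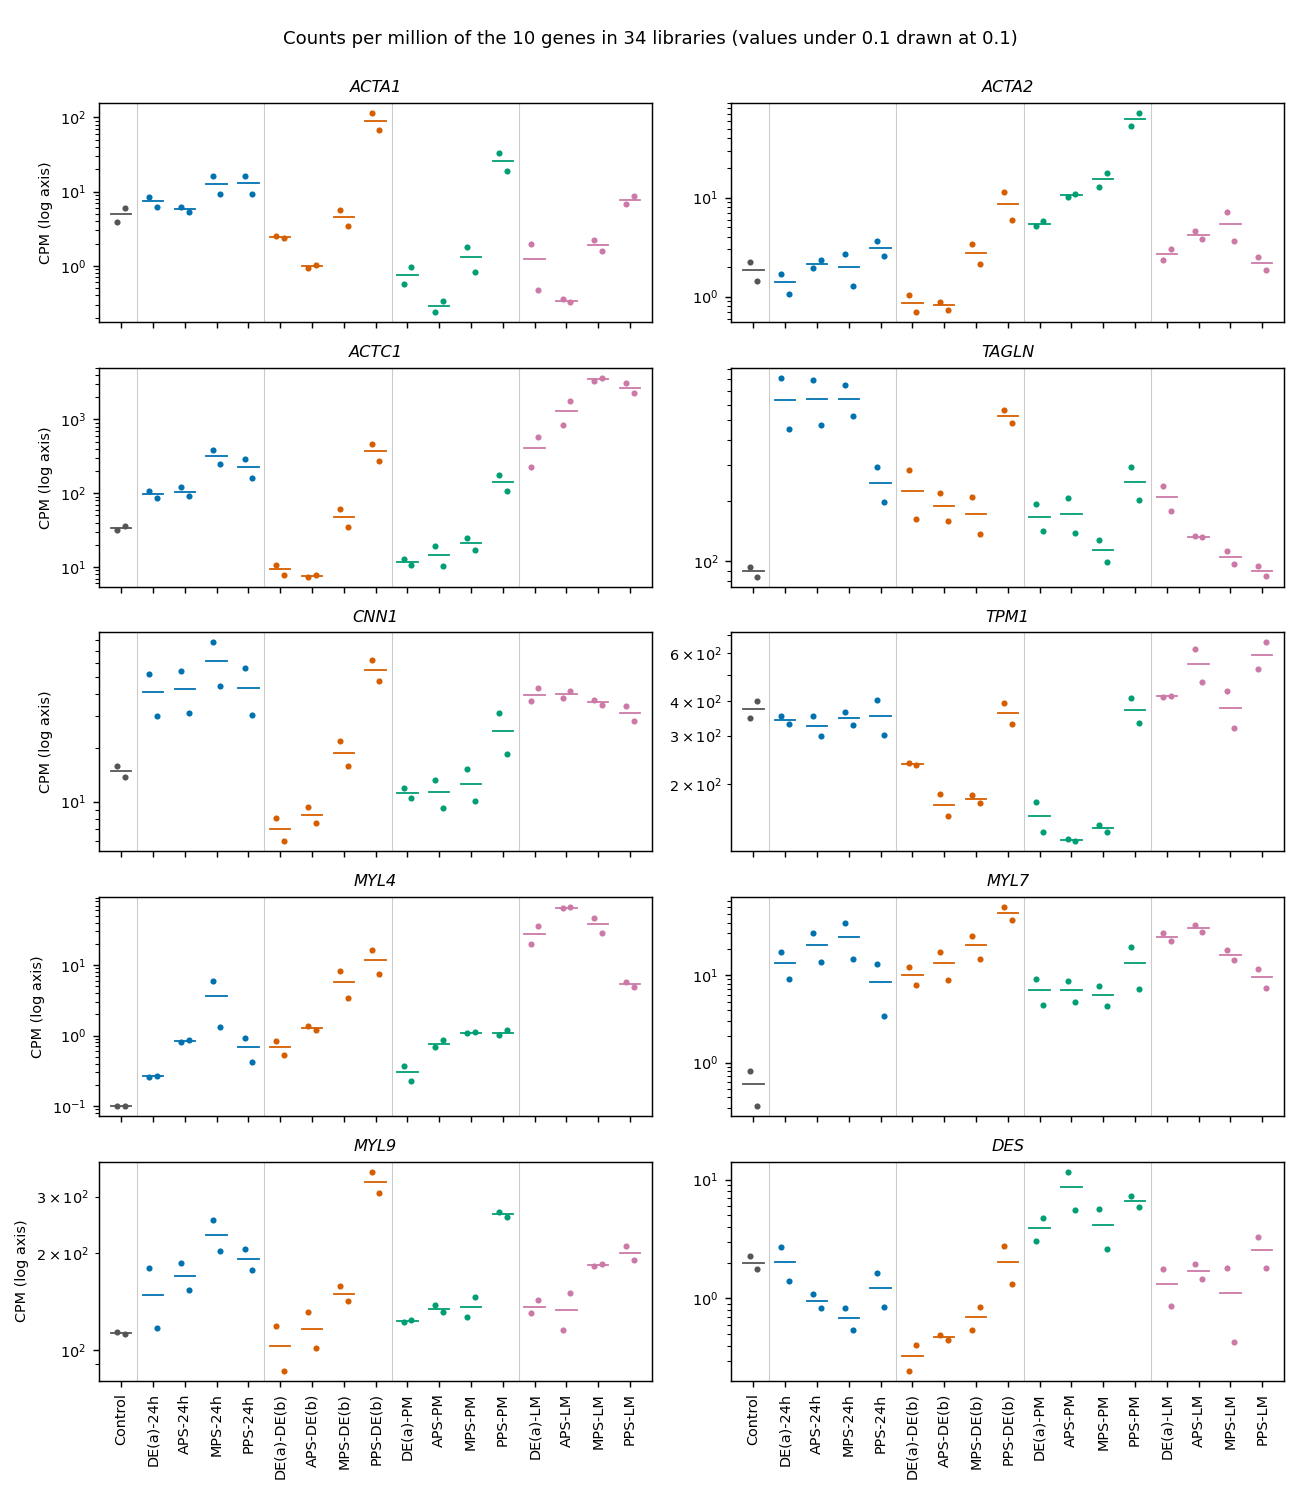
Level in CPM (log axis) of the 10 genes in all 34 libraries, as 1 panel for each gene, points for the 2 libraries of a condition and a line at their mean; vertical lines divide the control, 24 h, DE(b), PM and LM. ACTC1 and MYL4 are highest in LM, ACTA2 and DES in PM, TAGLN at 24 h and ACTA1, MYL7 and MYL9 in PPS-DE(b).

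The first set of comparisons asked what 1 day toward each streak coordinate did to these genes. In DE(a)-24h minus Control, 5 of the 10 genes were called, all higher, beside 19% of all genes. The median log2 fold change of the 10 was 1.12, or 0.76 with MYL4 at its bound. In APS-24h minus Control, 6 were called higher beside 24.5% of all genes, with a median of 1.14. In MPS-24h minus Control, 7 were called higher beside 30% of all genes, with a median of 1.81. In PPS-24h minus Control, 7 were called higher beside 29.8% of all genes, with a median of 1.44. No member was called lower than the control at 24 h. The genes called in each of the 4 were ACTC1, TAGLN, CNN1, MYL4 and MYL7. TAGLN differed from the control by 2.93 ± 0.34 in DE(a), 2.92 ± 0.34 in APS, 2.94 ± 0.34 in MPS and 1.48 ± 0.33 in PPS. ACTC1 differed by 1.59 ± 0.45, 1.71 ± 0.45, 3.31 ± 0.48 and 2.75 ± 0.47 in the same order. MYL7 differed by 4.65 ± 0.80 in DE(a), a value that became 5.48 without Control replicate 1 and 4.03 without DE(a)-24h replicate 1. The 4 comparisons share the 2 control libraries.

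Between neighbouring coordinates at 24 h the genes differed less. In APS-24h minus DE(a)-24h none of the 10 was called, beside 0.732% of all genes, and the median was 0.08. In MPS-24h minus APS-24h, where BMP4 was added and CHIR99021 raised, MYL4 was called, at 2.14 ± 0.57, beside 2.93% of all genes, and the median of the 10 was 0.38. That value rests on MPS-24h replicate 1, without which it was 0.66. In PPS-24h minus MPS-24h, where activin A was left out, TAGLN at -1.46 ± 0.33 and MYL4 at -2.47 ± 0.60 were called, beside 6.14% of all genes, and the median was -0.44. Without MPS-24h replicate 1 the MYL4 value was -0.98.

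On the second day of the 3 standard protocols the 10 genes parted. From DE(a)-24h to DE(a)-DE(b) 7 were called lower and none higher, beside 28% of all genes, with a median of -1.16. ACTC1 was lower by 3.44 ± 0.50, DES by 2.71 ± 0.67 and CNN1 by 2.61 ± 0.37 on the log2 scale. From APS-24h to APS-PM 6 were called lower and 2 higher, beside 25.1% of all genes, with a median of -1.67. The 2 higher were DES, at 3.06 ± 0.61 (2.44 without APS-PM replicate 1), and ACTA2, at 2.18 ± 0.40. ACTA1, at -4.38 ± 0.58, was farthest below its 24 h level there. From MPS-24h to MPS-LM 3 were called higher and 2 lower, beside 31.3% of all genes, with a median of -0.11. ACTC1 at 3.46 ± 0.48, MYL4 at 3.33 ± 0.53 and ACTA2 at 1.40 ± 0.40 were the higher ones, of which MYL4 was 4.84 and ACTA2 2.09 without MPS-24h replicate 1. ACTA1 at -2.74 ± 0.47 and TAGLN at -2.63 ± 0.34 were the lower.

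Averaged over the 4 starts, the media differed as follows. In LM minus PM 5 genes were called higher (ACTC1, MYL4, TPM1, CNN1 and MYL7) and 2 lower (ACTA2 and DES), beside 42% of all genes, with a median of 0.75. In LM minus DE(b) 6 were called higher and 2 lower (ACTA1 and TAGLN), beside 39.6% of all genes, with a median of 0.91. In DE(b) minus PM 5 were called higher and 2 lower (again ACTA2 and DES), beside 43% of all genes, with a median of 0.39. MYL9 was not called in any of the 3, at 0.10 ± 0.10, 0.05 ± 0.10 and 0.06 ± 0.10.

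How far the day 1 start was still visible at 48 h was asked within each medium. Over the 4 starts, 10 of the 10 genes were called in DE(b), beside 16.6% of all genes, 5 in PM, beside 7.47%, and 5 in LM, beside 19.6%. PPS-DE(b) minus DE(a)-DE(b), a comparison chosen after the values were seen, like its counterparts in PM and LM, had all 10 genes higher and called, beside 17.4% of all genes, with a median of 2.83. ACTC1 differed by 5.35 ± 0.53, ACTA1 by 5.23 ± 0.51, ACTA2 by 3.35 ± 0.43 and MYL4 by 4.14 ± 0.60, the last being 3.48 without PPS-DE(b) replicate 1. In PM the same contrast had 6 called higher and none lower, beside 8.61% of all genes, with a median of 1.24. ACTA1 at 5.12 ± 0.54, ACTC1 at 3.61 ± 0.49 and ACTA2 at 3.53 ± 0.40 led there. In LM it had 4 called higher and 2 lower, beside 14.3% of all genes, with a median of 0.19. The lower ones were MYL4, at -2.29 ± 0.51, and TAGLN, at -1.11 ± 0.32. ACTA1 was higher by 2.82 ± 0.50, a value of 4.07 without DE(a)-LM replicate 1 and 2.11 without DE(a)-LM replicate 2. ACTC1 was higher by 2.80 ± 0.47, or 3.71 without DE(a)-LM replicate 2.

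Counted by libraries, both PPS libraries lay above all 6 of the other starts for 9 of the 10 genes in DE(b), beside 14.8% of all genes, the exception being MYL4. In PM this held for 6 of the 10 (ACTA1, ACTA2, ACTC1, CNN1, MYL9 and TPM1), beside 10.9% of all genes. In LM it held for ACTA1 and MYL9 alone, beside 8.02% of all genes, and 4 genes (TAGLN, CNN1, MYL4 and MYL7) had both PPS libraries below the other 6, beside 7.61%. Nothing is read from these counts for the reason given above.

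**Figure D3:**
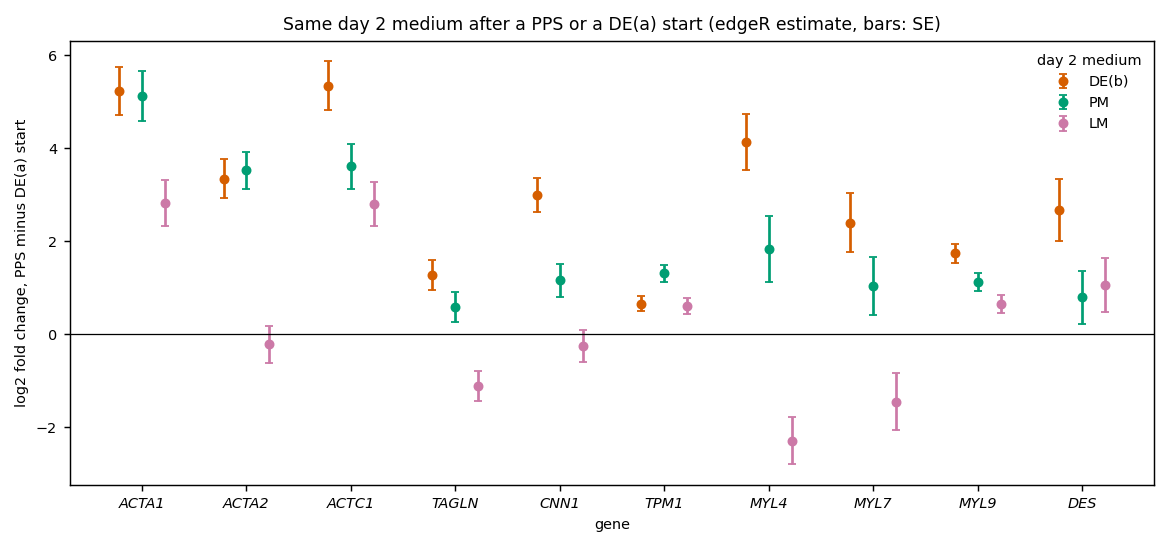
Log2 fold change between a PPS and a DE(a) start in the same day 2 medium for the 10 genes (edgeR estimates from 2 against 2 libraries, bars are the SE). All 10 points for DE(b) are above 0, between 0.66 for TPM1 and 5.35 for ACTC1, while the LM points run from -2.29 for MYL4 to 2.82 for ACTA1.

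The 10 genes did not follow one common pattern. Over the 17 condition means of log2(CPM + 1), the 45 pairs had a median Pearson r of 0.29, from -0.32 (MYL7 and DES) to 0.84 (ACTA1 and MYL9), and 33 of 45 were above 0. These values describe 17 means that share libraries, and carry no p. ACTC1 went with TPM1 (r = 0.83), CNN1 (0.80) and MYL4 (0.74), and ACTA2 went with DES (0.78), while ACTA2 and ACTC1 had an r of 0.06. Over a pool of 12263 genes, the gene most like ACTA1 was MYL9, a gene of the same set. For ACTC1 the 3 most alike were ST3GAL1 (0.930), SGMS1 (0.926) and GATA2 (0.924), for TAGLN they were NPPB (0.934), SOWAHC (0.905) and CXCL14 (0.897), and for ACTA2 they were IFT57 (0.952), CDH24 (0.942) and BTBD1 (0.941). TRIM5 (0.932) led for MYL4, DAAM2 (0.913) for DES, AJUBA (0.888) for MYL9, LGALS3 (0.878) for CNN1, FOXJ2 (0.862) for MYL7 and SYDE2 (0.846) for TPM1. The ACTA1 and MYL9 value was 0.678 in replicate 2 alone, and that of MYL7 and FOXJ2 was 0.711 without the control.

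**Figure D4:**
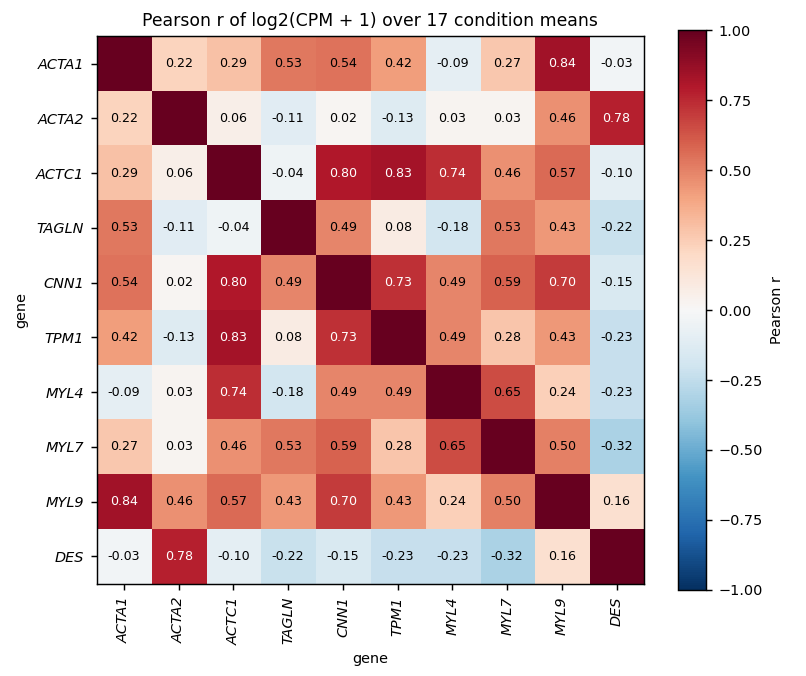
Pearson r between each pair of the 10 genes over the 17 condition means of log2(CPM + 1), with red for positive and blue for negative values. ACTC1, CNN1 and TPM1 form a block of r between 0.73 and 0.83, ACTA1 and MYL9 stand at 0.84, and the DES row is at or below 0.16 with every gene except ACTA2, at 0.78.

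Of 99 further muscle, cytoskeleton and regulator genes in 4 lists, 87 could be tested. These were 25 of 35 sarcomere genes, 26 of 26 smooth muscle genes, 10 of 12 muscle regulators and 26 of 26 of a non-muscle list. The non-muscle list held actins, myosins and other cytoskeletal genes and regulators, among them TMOD1, RHOB and VIM. Against the control, 22 of the 87 rose and 2 fell in DE(a)-24h, and 24 rose and 3 fell in APS-24h. In MPS-24h 32 rose and 4 fell, and in PPS-24h 23 rose and 7 fell. Of all genes, 10.3% rose and 8.68% fell in DE(a)-24h, 13.6% and 11% in APS-24h, 16.5% and 13.4% in MPS-24h, and 16.4% and 13.4% in PPS-24h. Genes of the non-muscle list made up 11, 12, 15 and 8 of these rises, with list medians of 0.67, 0.58, 0.81 and 0.35. Sarcomere genes made up 2, 2, 4 and 4, with list medians of -0.29, -0.21, -0.27 and 0.00. The sarcomere medians include 7, 8, 8 and 8 genes with a group at the floor. With these genes at their bounds the medians were 0.10, -0.08, -0.09 and 0.16, so no common fall is read from them. RHOB, a small GTPase of actin filaments, rose most in DE(a) (3.95 ± 0.31, adjusted p = 4.57e-09, edgeR), from 12.1 and 9.54 CPM to 195 and 120 CPM. FHL1, a LIM protein of muscle, fell most there (-1.48 ± 0.19, adjusted p = 5.02e-06), and NEB, the giant thin-filament protein nebulin, fell most in MPS (-1.83 ± 0.58, adjusted p = 0.0193). Leaving out Control replicate 2 took the calls in DE(a)-24h from 24 to 11 and in APS-24h from 27 to 16, leaving out DE(a)-24h replicate 1 took the former to 13, and leaving out either control took those in PPS-24h from 30 to 18.

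Between APS and DE(a) at 24 h, edgeR called 0 of the 87 genes, with 1 at an unadjusted p under 0.05, and DESeq2 also called 0. Of all genes, 0.732% were called in APS-24h minus DE(a)-24h, 2.93% in MPS-24h minus APS-24h and 6.14% in PPS-24h minus MPS-24h. Of the 87, 0%, 3.45% and 8.05% were called in the same order, near those shares. In MPS-24h minus APS-24h 3 rose, among them MYOCD (2.45 ± 0.46, adjusted p = 0.00303), and leaving out either APS-24h library left 1. In PPS-24h minus MPS-24h 1 rose, NEBL (0.92 ± 0.28, adjusted p = 0.0499), a nebulin-like protein, and 6 fell, with the intermediate filament gene VIM farthest (-1.74 ± 0.33, adjusted p = 0.00203). None of the 7 was called without MPS-24h replicate 1 or without PPS-24h replicate 2.

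On day 2, in DE(a)-DE(b), 9 of the 87 rose and 19 fell against 24 h, beside 14.5% and 13.5% of all genes, and the 9 called of the smooth muscle list and 8 of the 9 called of the non-muscle list fell, with medians of -0.33 and -0.43. The largest rise was TMOD1, which caps the pointed end of actin filaments (4.18 ± 0.64, adjusted p = 4.29e-05), and the largest fall RHOB (-2.22 ± 0.29, adjusted p = 6.04e-06). In APS-PM 12 rose and 18 fell, beside 11.9% and 13.2% of all genes. TTN, the giant sarcomere protein titin, rose by 3.23 ± 0.69 (adjusted p = 0.00134), from 23.3 and 39.1 CPM to 114 and 515 CPM in replicates that lay far apart, and SYNM, an intermediate filament protein, fell (-2.89 ± 0.41, adjusted p = 1.82e-05). In MPS-LM 15 rose and 20 fell, beside 14.4% and 16.9% of all genes, with PPP1R14A, an inhibitor of myosin phosphatase, rising (2.25 ± 0.34, adjusted p = 2.76e-05) and FHL2 falling (-1.89 ± 0.29, adjusted p = 2.95e-05). Without DE(a)-DE(b) replicate 2 the 28 calls in DE(a)-DE(b) were 17, and without MPS-LM replicate 1 the 35 calls in MPS-LM were 21.

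Across media, 25 of the 87 were higher and 17 lower in LM than in PM, 27 higher and 21 lower in LM than in DE(b), and 22 higher and 21 lower in DE(b) than in PM, with list medians between -0.07 and 0.32. Of all genes, 21% were higher and 21% lower in the first of these, 19.8% and 19.8% in the second, and 21.4% and 21.6% in the third. TAGLN3, a neuronal relative of TAGLN, was lower in LM than in PM (-3.11 ± 0.18, adjusted p = 5.24e-12). MYLK, the kinase of the regulatory light chain, was higher in LM than in DE(b) (1.63 ± 0.15, adjusted p = 1.03e-08), and TMOD1 was lower there (-1.46 ± 0.27, adjusted p = 0.000141) and higher in DE(b) than in PM (7.07 ± 0.39, adjusted p = 1.24e-12). MYH6, the atrial myosin heavy chain, was called lower in DE(b) than in PM (adjusted p = 1.82e-07). It was at or under 3 counts in the 8 DE(b) libraries and reached 12.1 and 11.6 CPM in PPS-PM.

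After a PPS against a DE(a) start, the smooth muscle list had 10 higher and 0 lower of 26 in DE(b), with a median of 0.46, and the non-muscle list 6 higher and 0 lower of 26, with a median of 0.43. The sarcomere list was split, with 2 higher and 2 lower of 25 and a median of -0.05, and RYR2, the calcium release channel of heart muscle, was lower (-3.15 ± 0.67, adjusted p = 0.00186). Over all lists, DE(b) had 20 higher and 2 lower, PM had 7 higher and 3 lower, and LM had 11 higher and 4 lower. Of all genes, 8.63% were higher and 8.73% lower in DE(b), 3.67% and 4.95% in PM, and 6.52% and 7.81% in LM. Over the 4 starts, DE(b) had 23 of the 87 called, PM 7 and LM 22, beside 16.6%, 7.47% and 19.6% of all genes. In PM, MYH6 was higher after PPS (3.84 ± 1.00, adjusted p = 0.0207) and TAGLN2 lower (-1.01 ± 0.26, adjusted p = 0.018). In LM, SYNM was higher (3.91 ± 0.41, adjusted p = 6.96e-07), at 247 and 318 CPM against 16.3 and 23.7, and VIM was lower (-1.64 ± 0.32, adjusted p = 0.00105). The 22 calls between these starts in DE(b) were 13 without PPS-DE(b) replicate 1, the 23 over all starts were 13 without that library and 14 without PPS-DE(b) replicate 2, and the 10 in PM were 2 without DE(a)-PM replicate 1 or PPS-PM replicate 2.

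Among the regulators, MYOCD stood out by its range, and it was named by the size of its differences in 4 comparisons. It was 2.58 and 2.55 CPM in the control, 38.4 and 25.6 in MPS-24h (3.74 ± 0.50 against the control, adjusted p = 4.54e-06) and 162 and 115 in PPS-DE(b). MYOCD was higher in PPS-DE(b) than in DE(a)-DE(b) by 3.69 ± 0.47 (adjusted p = 9.33e-06). In LM it ran from 24.9 to 90.1 CPM and in PM from 0.329 to 1.29 CPM, a difference of 6.14 ± 0.29 (adjusted p = 1.27e-13). ACTA1, MYL7 and MYL9 were also highest in PPS-DE(b). ACTA1 and MYL9 were second highest in PPS-PM, where MYOCD was 0.519 and 0.809 CPM. In LM ACTA1 was 0.322 to 8.83 CPM. Whether MYOCD bears on the levels of these genes was not tested. SRF, MRTFA and MRTFB, picked after their values were seen, varied less. SRF rose at 24 h by 0.78 ± 0.24 in DE(a) (adjusted p = 0.0217), 0.80 ± 0.24 in APS (adjusted p = 0.0155) and 0.87 ± 0.24 in MPS (adjusted p = 0.00729), with 0.50 ± 0.24 in PPS (adjusted p = 0.117), and fell on day 2 of the 3 standard protocols, by 1.13 ± 0.24, 1.09 ± 0.24 and 1.06 ± 0.24 on the log2 scale (adjusted p = 0.00118, 0.00152 and 0.00153). The mRNA level of SRF and its partners does not report their activity.

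**Figure D5:**
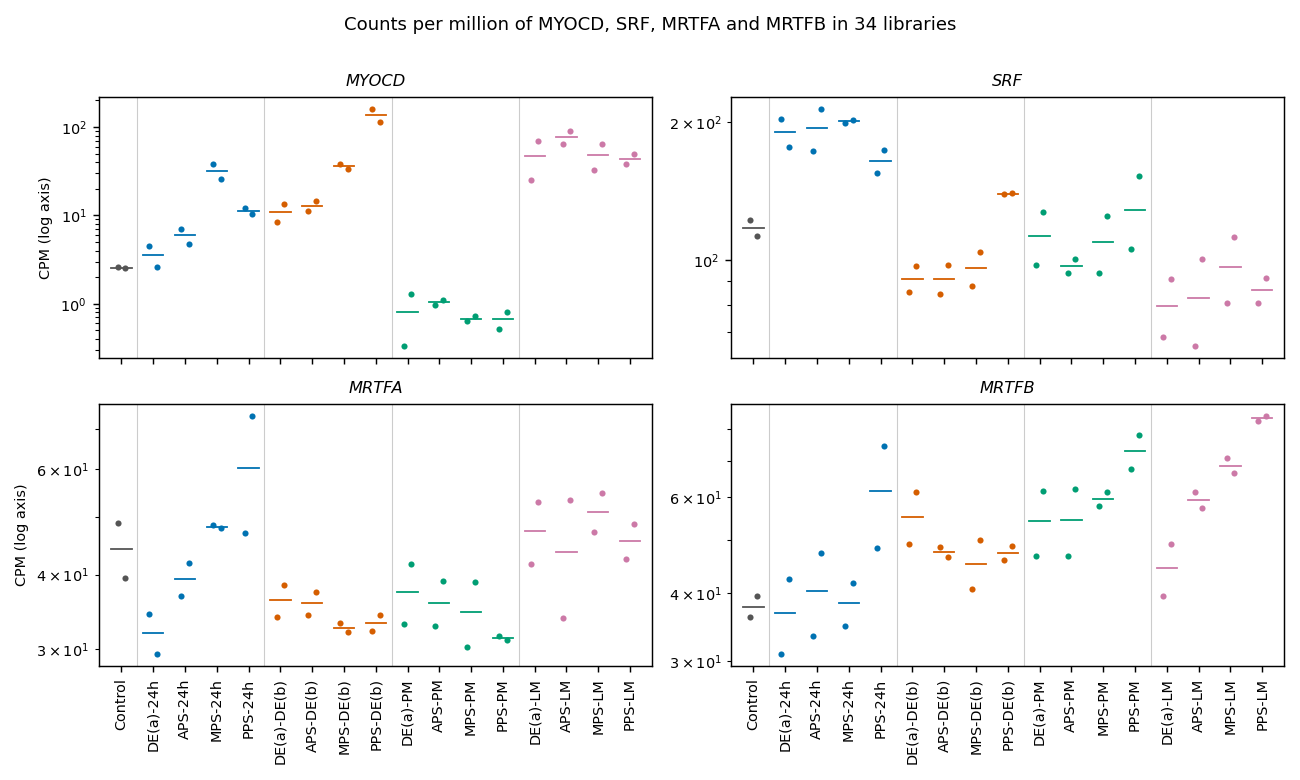
Level in CPM (log axis) of MYOCD, SRF, MRTFA and MRTFB in the 34 libraries, with points for the 2 libraries of a condition and a line at their mean. MYOCD spans from 0.329 CPM in PM to 162 CPM in PPS-DE(b), and SRF is between 155 and 214 CPM in the 8 libraries of 24 h and between 65.04 and 152 CPM in the other 26.

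Markers of the cell types these cultures could hold were set beside the members as summed levels. The lateral mesoderm list (HAND1, FOXF1, ISL1 and GATA4, 4 of 4 at 1 CPM or more in each LM condition) summed to 493 to 2320 CPM in LM, where ACTC1 was highest, and to 8.999 to 147 CPM in PM and DE(b). The cardiac list (NKX2-5, TBX5, MYH6 and TNNT2) summed to 14.97 to 65.01 CPM in LM and at most 13.6 CPM elsewhere. The LM sums were mostly NKX2-5 and TNNT2. TBX5 reached at most 3.15 CPM, and MYH6 was highest in PPS-PM, at 12.1 and 11.6 CPM, against 1.45 to 3.97 CPM in LM. The smooth muscle list (MYH11, MYOCD and LMOD1) summed to 164 and 115 CPM in PPS-DE(b), nearly all of it MYOCD: MYH11 was 1.69 and 0.087 CPM and LMOD1 0.433 and 0.243 CPM in these libraries. The amnion list, 6 genes, summed to 974 and 1071 CPM in PPS-LM and to at most 281 CPM in the other LM libraries. Most of the PPS-LM sum was IGFBP3, at 709.5 and 697 CPM. TFAP2A, GABRP, VTCN1 and KRT7 were also highest in PPS-LM within LM. GATA3 was not, at 107 and 136 CPM in PPS-LM and 128.5 and 140 in DE(a)-LM. PPS-LM is where TAGLN, CNN1, MYL4 and MYL7 were lowest within LM. In PPS-DE(b) the amnion list summed to 17.7 and 15.7 CPM. Other lists also differed between PPS-DE(b) and DE(a)-DE(b), the pair in which all 10 genes differed. The paraxial list summed to 421 and 455 CPM against 6.93 and 9.71, the lateral list to 146.5 and 127 against 37.7 and 48.1, the primitive streak list to 1630 and 1756 against 1022 and 1031, and the endoderm list to 131 and 264 against 647 and 803. HAND1 was 100 and 69.3 CPM against 0 and 0.058, DLL3 was 341 and 382 CPM against 4.66 and 7.79, and FOXA2 2.17 and 11 CPM against 86.0 and 125 (these 3 were picked after their values were seen). The endothelial list summed to 288 to 1506 CPM in LM, 16.9 to 112.5 CPM in PM and DE(b), and 159 and 198 CPM in the control. In LM nearly all of it was KDR, with PECAM1 at most 1.05 CPM and CDH5 at most 0.764 CPM. The paraxial list summed to 909 to 1589 CPM in PM and at most 567 CPM elsewhere. The endoderm list summed to 131 to 803 CPM in DE(b), 234 to 335 CPM in PM and at most 137 CPM elsewhere. In MPS-PM and PPS-PM nearly all of it was CXCR4, at 234 to 335 CPM. SOX17 and HHEX had no count there, and FOXA2 was at most 0.252 CPM. The primitive streak list summed to 1884 to 3335 CPM at 24 h, and the undifferentiated list to 1361 and 1689 CPM in the control. The part of these cell types in the levels of the 10 genes was not tested.

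The 2 replicates differed in these genes in one direction in part of the conditions. Replicate 1 was the higher for 8 to 10 of the 10 genes in each 24 h and DE(b) condition, with median log2 ratios of 0.20 to 0.65, while the median of all genes in these conditions was between -0.01 and 0.05. In PM replicate 1 was higher for 6 to 8 of the 10 and in LM for 4 to 8. ACTC1 was higher in replicate 2 in 3 of 4 LM conditions, and ACTA2 in 4 of 4 PM conditions. Each condition has 1 library in each replicate, so a shift of equal size everywhere would lie in no contrast between conditions. This shift was not equal: its median log2 ratio was 0.65 in MPS-24h and -0.07 in DE(a)-LM. It adds to the spread within conditions, and part of it can enter contrasts between them. What differed between the replicates was not tested.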

How the data were processed

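RNA was poly(A)-selected into stranded libraries (NEBNext Ultra II Directional) and sequenced as pairs of 75-base reads. The authors deposited estimated counts per gene, made with Salmon 1.10.2 on GRCh38 per the labels, with 1 table for each replicate and 0 unmatched columns. The annotation release is not given in the sources used here. Symbols with several identifiers (MYOM2, MYH11, POU5F1, GATA4) were read from the identifier in the primary GENCODE annotation. The deposited values were rounded, filtered (filterByExpr by condition, 17895 of 37951 genes kept), scaled by TMM and fitted with edgeR 4.0.16 (quasi-likelihood F test, R 4.3.3), with 17 residual degrees of freedom and a common dispersion of 0.0611, and the fit was tested on simulated data. With 2 libraries for each condition, p-values measure the spread between these libraries, which may be technical, and floors cover counting error only.

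The 10 genes and all lists were chosen with earlier results of these data known. Of the 4 pathway lists, the called genes with the largest rise and fall in each comparison are named, if they reached a mean of 10 CPM in some condition and, between 2 conditions, the libraries did not overlap. The 3 genes most like each member, with the highest Pearson r, are named too. Alternatives were RLE size factors, no filter, a replicate block, a fit of only the libraries compared, DESeq2 1.42.0, a pseudocount of 0.1, and each library left out with the full fit's dispersion trend kept. Those for the PPS minus DE(a) comparisons were added after seeing the data. The 3 printed promoter stretches equalled the genome.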

Additional observations from a re-analysis of the deposited data

Results flagged for a closer look

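In 11 genes, of the 10 members and 16 named listed genes, the mean after a PPS start was above that after a DE(a) start in one day 2 medium and below it in another, with no overlap of libraries in either and a mean of 10 CPM reached in each. These differences between media were not tested, and the share of all genes that do the same was not computed. The listed genes were named for large differences, some of them PPS minus DE(a), so nothing is read from this count. Values are ratios of mean CPM, PPS over DE(a). For TAGLN the ratio was 2.35 in DE(b), 0.432 in LM and 1.49 in PM. For CNN1 it was 7.73 in DE(b), 0.786 in LM and 2.22 in PM. MYL4 was 17.3 in DE(b) and 0.193 in LM, and MYL7 was 5.12 in DE(b) and 0.341 in LM. These 4 members shared a higher level in DE(b) and a lower one in LM. The PPS minus DE(a) differences in LM of CNN1 (-0.26 ± 0.34, log2, SE) and MYL7 (-1.45 ± 0.62) were not called.

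Of the listed genes, FHL2, a LIM protein, had ratios of 2.58 in DE(b), 0.752 in LM and 1.51 in PM, and VIM had 2.22 in DE(b) and 0.304 in LM, the same order as the 4 members. TAGLN2 had 1.54 in DE(b), 2.01 in LM and 0.489 in PM. The giant sarcomere protein gene TTN had 2.6 in PM and 0.253 in LM. RYR2 had 4.72 in PM, 0.109 in DE(b) and 0.267 in LM. NEBL had 2.5 in PM and 0.694 in DE(b), and SYNM had 1.72 in PM, 0.647 in DE(b) and 14.2 in LM. All these ratios are listed whether or not the difference was called.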

How the results depend on the processing

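Log2 fold changes of the 10 members moved by at most 0.03 with RLE size factors, without the filter, with DESeq2 or with only the libraries compared, and by at most 0.15 with the replicate block, with no change of sign in any of these. With 1 library left out they moved by up to 1.51 (MYL4, MPS-LM minus MPS-24h), and 43 of 984 such values changed sign, none larger than 0.71 in size. Over 2 libraries a condition, each library weighs heavily, and members near the floor (MYL4, DES, ACTA2) are limited by depth.

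Counts of the listed pathway genes called changed by over 1.5 times as follows. Without the filter they were 2 in APS-24h minus DE(a)-24h (0 as reported), 12 in PPS-24h minus MPS-24h (7) and 17 over the 4 starts in PM (7). With DESeq2 they were 12 in PPS-24h minus MPS-24h and 11 over the starts in PM. With only the libraries compared they were 1 in MPS-24h minus APS-24h (3), 1 in PPS-24h minus MPS-24h, 2 over the starts in PM and 0 in PPS-PM minus DE(a)-PM (10). The cause was not tested.

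Libraries of the same replicate number deviated together in most but not all condition pairs: over 14647 genes the correlation of their deviations ran from -0.196 to 0.569 in 136 pairs, with a median of 0.162, and was over 0.1 in 96. Since it was not over 0.1 in every pair and the labels do not state a shared batch, the numbers were not taken to pair the samples. With the replicate block the calls were 15 in PPS-24h minus MPS-24h, 13 over the starts in PM and 18 in PPS-PM minus DE(a)-PM, and within 1.5 times of the reported count in the other 16 comparisons.

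With each library left out in turn, calls ran from 11 to 22 in DE(a)-24h minus Control (24 as reported), 16 to 24 in APS-24h minus Control (27), 18 to 21 in PPS-24h minus Control (30), 1 to 2 in MPS-24h minus APS-24h (3), 0 to 7 in PPS-24h minus MPS-24h (7), 17 to 27 in DE(a)-DE(b) minus DE(a)-24h (28) and 21 to 26 in MPS-LM minus MPS-24h (35). They ran from 13 to 22 over the starts in DE(b) (23), 3 to 7 over the starts in PM (7), 13 to 19 in PPS-DE(b) minus DE(a)-DE(b) (22) and 2 to 9 in PPS-PM minus DE(a)-PM (10). A lone library was taken to vary like the others. Over the starts in PM the count was 4 without DE(a)-PM replicate 1 or PPS-PM replicate 1 and 3 without PPS-PM replicate 2.

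The median r of the 45 member pairs was 0.40 without the control, 0.38 in replicate 1 alone and 0.31 in replicate 2 alone, against 0.29 as reported. Over the alternatives, r between a member and the genes named as most like it ran from 0.678 to 0.963, and fell under 0.8 in at least 1 alternative for 12 of the 30 pairs. Whether other genes then ranked above them was not computed.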
